A study of Mus musculus with 66 samples.

Results

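The genes described here are 52 mouse genes of the dividing cell in 2 classes, 28 that copy DNA and 24 that carry out mitosis, followed through the regeneration of skeletal muscle. They are named by textbook function, and the choice of genes uses no measured value, although they were named with earlier results of these data known. Of the 52, 49 had a probe set annotated to them alone on the main array, 26 replication genes and 23 mitosis genes, out of 8251 genes with such a probe set. A probe set is a group of short oligonucleotides that reads 1 transcript. Where a gene had several, the brightest by its mean over the 54 main arrays was taken, a choice that does use measured values. Tyms, thymidylate synthase, was read only by 2 probe sets that it shares with another gene, and Pole and Bub1b were not analysed here. All 49 passed the filter on dim probe sets.

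A dividing cell copies its DNA in S phase and separates the copies in mitosis. Before S phase, Cdc6 loads rings of Mcm proteins onto the start sites of replication, and the rings later unwind the DNA for the polymerases. The genes of S phase are commonly switched on by E2F transcription factors, whereas mitosis genes are commonly held down until later in the cycle through a promoter element known as the cell cycle homology region, and are driven through CCAAT boxes. In injured muscle, satellite cells divide to supply the myoblasts that rebuild the fibres, and cells of the immune and connective tissue can divide there too.

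Gene expression was measured on whole gastrocnemius, a calf muscle of the mouse, at set times after cardiotoxin, a component of snake venom that kills muscle fibres, and in untreated muscle. The later version of the Affymetrix murine array (Av2 in the labels) held 54 arrays, 2 for each of 26 times from 12 h to 40 d after injection and 2 of untreated controls. The earlier version (A) held 12 arrays, 2 each for 12 h, 1 d, 2 d, 4 d and 10 d and 2 of controls, and the sample codes of its controls and 12 h group also occur on the later version. An injected volume of 100 ul at 10 uM is stated for 10 of the arrays and an age of 8 weeks for 4 control arrays, while genotype and sex are not given in these sources. Whether both arrays of a group stem from different mice is not stated, and p-values therefore cover the spread between arrays alone. In 9 groups of the later version (1, 4, 4.5, 5, 5.5, 11, 12, 13 and 14 d) both arrays carry the same code number, with the letters LL and RL. In its other groups, controls included, the code numbers differ.

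Values are the authors' linear intensities. Every array of the later version had a 2% trimmed mean of 800.4 to 800.5 and a median of 301.4 to 362. Log2 changes were computed after values had been raised to a floor of 64.7, and a change called higher or lower passed an adjusted p of 0.05 in limma. All comparisons with untreated muscle share the same 2 control arrays. All 8 markers of muscle fibres lay above the floor in the controls. On 7 arrays of the later version, array 2 of 12 h and both arrays of 1 d, 2 d and 4 d, the manufacturer's 3′ probe set for b-actin was dim beside the 5′ one, with a ratio of 0.018 to 0.078, against 0.725 and 1.057 on the controls. On the 12 arrays of the earlier version that ratio was 0.77 to 1.2. The like ratio for Gapdh was 0.044 to 0.162 on 9 late arrays of the later version, 1 at 8 to 10 d, 4 of 10 at 11 to 16 d and 4 of 6 at 20 to 40 d, and 0.314 to 0.97 on all others. What these ratios contribute to any value was not tested beyond the comparisons given here.

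Promoters that hold the elements named above are shown first, so that the elements can be read in their sequence. They are, for each class, those of the 2 genes with the largest log2 change at 3 to 4.5 d among genes whose entry holds the elements of the class. They are therefore not typical of the changes: Top2a (at least 3.45) and Rrm2 (2.91), whose log2 changes exceeded that of Mcm5 (2.84), hold no E2F word. Sequences are from RefSeq on GRCm38.p6, 250 bases before to 50 bases after the start of the gene, and 44 of the 49 genes had an entry, 24 of replication and 20 of mitosis. For replication, capitals mark any of 4 E2F words (TTTCCCGC, TTTGGCGC, TTTGCCGC and TTTCGCGC) on either strand. For mitosis, capitals mark the cell cycle homology region TTTGAA and the CCAAT box on either strand. Uhrf1 lies at chr17:56304063-56304362 (plus strand), Mcm5 at chr8:75109259-75109558 (plus), Cdk1 at chr10:69352863-69353162 (minus) and Prc1 at chr7:80294201-80294500 (plus).
Uhrf1: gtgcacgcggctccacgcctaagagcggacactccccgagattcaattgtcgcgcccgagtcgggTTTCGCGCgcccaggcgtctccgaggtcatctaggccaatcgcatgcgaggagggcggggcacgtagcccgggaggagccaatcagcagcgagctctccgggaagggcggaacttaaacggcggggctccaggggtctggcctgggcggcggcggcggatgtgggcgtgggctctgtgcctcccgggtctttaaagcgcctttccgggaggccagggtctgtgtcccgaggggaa
Mcm5: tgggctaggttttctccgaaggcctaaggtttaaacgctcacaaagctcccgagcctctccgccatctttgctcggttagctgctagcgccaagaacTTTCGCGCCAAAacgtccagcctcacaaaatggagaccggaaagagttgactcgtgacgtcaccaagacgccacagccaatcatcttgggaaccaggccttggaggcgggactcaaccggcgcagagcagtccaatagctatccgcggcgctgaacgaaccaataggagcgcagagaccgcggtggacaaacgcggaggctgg
Cdk1: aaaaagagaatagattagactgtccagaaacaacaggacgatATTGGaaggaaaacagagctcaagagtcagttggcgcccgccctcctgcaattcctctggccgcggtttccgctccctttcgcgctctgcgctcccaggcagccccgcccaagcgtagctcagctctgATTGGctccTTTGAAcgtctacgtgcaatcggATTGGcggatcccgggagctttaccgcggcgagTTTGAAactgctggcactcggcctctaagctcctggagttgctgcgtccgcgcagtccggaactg
Prc1: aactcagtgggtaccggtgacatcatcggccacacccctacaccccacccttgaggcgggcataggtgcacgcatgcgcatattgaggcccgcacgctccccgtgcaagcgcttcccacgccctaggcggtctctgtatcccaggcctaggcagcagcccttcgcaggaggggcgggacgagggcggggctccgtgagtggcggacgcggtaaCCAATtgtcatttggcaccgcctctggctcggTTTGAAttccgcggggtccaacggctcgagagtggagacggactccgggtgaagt
The capitals in Mcm5 are 2 overlapping matches, TTTCGCGC and, on the other strand, TTTGGCGC.

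An E2F word was found in 9 of the 24 replication promoters (37.5%), in 1 of the 20 mitosis promoters (5.0%) and in 2.6% of the 27025 genes with an entry. The single mitosis gene with such a word was Cdk1, where it stands in small letters above. TTTGAA was found in 14 of the 20 mitosis promoters (70.0%), in 4 of the 24 replication promoters (16.7%) and in 20.2% of all genes. CCAAT was found in 17 mitosis promoters (85.0%), 15 replication promoters (62.5%) and 41.1% of all genes. Both together were found in 13 mitosis promoters (65.0%), against 3 replication promoters (12.5%), those of Mcm2, Cdc45 and Top2a, and 8.0% of all genes. A match describes these letters in this window and is not a measured binding site.

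Over the whole time course, 23 of 26 replication genes and 22 of 23 mitosis genes changed (F test over 27 groups), against 48.7% of all 11997 probe sets tested. The 4 that did not were Mcm6, Dut and Chaf1b among replication genes and Cenpa among mitosis genes. The plot of log2 change by gene and time shows both classes rising together at 2 d, standing highest at 3 d for most genes and declining over the following 2 weeks.

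**Figure D1:**
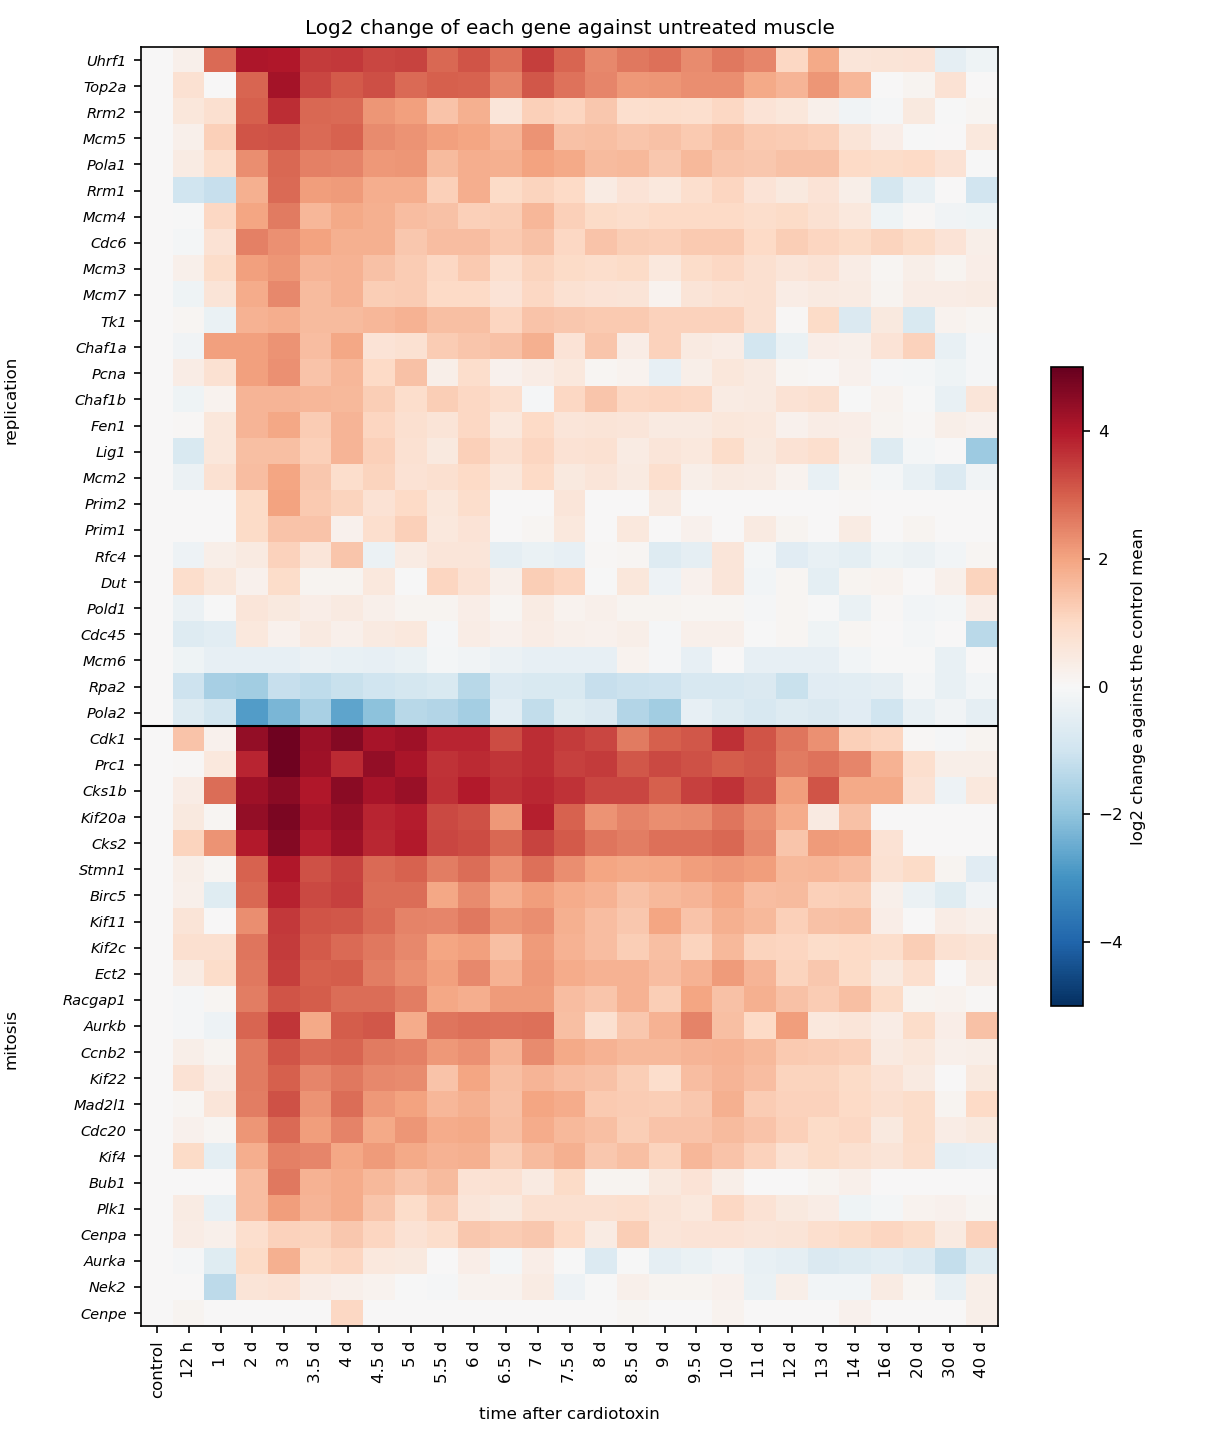
Log2 change of each of the 49 genes (rows, replication above the line and mitosis below, ordered by change at 3 to 4.5 d) against the mean of the 2 untreated controls, for controls and 26 times after cardiotoxin (columns, steps not to scale). Red is higher and blue lower than controls. Most genes are reddest at 3 d, Pola2 and Rpa2 are blue, and Uhrf1, Cks1b and Cks2 are already red at 1 d.

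Both classes were described at 3 to 4.5 d (3, 3.5, 4 and 4.5 d, n = 8 arrays) against untreated muscle (n = 2). In that window 19 of 26 replication genes and 21 of 23 mitosis genes were higher than in controls, against 22.2% of all probe sets, and 2 replication genes and no mitosis gene were lower in limma (0 mitosis genes also at an unadjusted p under 0.05), against 18.5% of all probe sets. The median log2 change was 1.57 over the replication genes and 2.90 over the mitosis genes, beside 0.00 over all probe sets. In bulk muscle, fewer cells of a type and less RNA per cell cannot be told apart, and so cannot more cells and more RNA per cell. Markers of several cell types moved in the same window. The summed intensity of 8 fibre markers was 79890 to 159100, against 195600 to 261100 in controls, with 4 lower, and that of 8 fibroblast markers was 86810 to 116900, against 63510 to 87300, with 6 higher and 1 lower. The summed intensity of 10 macrophage markers was 43340 to 75120, against 3304 to 5716 in controls, with all 10 higher. The sum of 8 myoblast and new myotube markers was 25130 to 43860, against 8729 to 9392 in controls, with 7 higher and 1 lower. Their part in the division genes was not tested.

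Among the genes that start replication, 5 of the 6 genes of the Mcm helicase ring rose. Mcm5 had 1982, 3163 and 3770 at 3 to 4.5 d as lowest, median and highest of 8 arrays, against 482 and 341 in controls, a log2 change of 2.84 ± 0.19 (SE, adjusted p = 2.06e-13). Mcm4 had 798, 999.9 and 1683, against 243 and 303 in controls (log2 change 1.97 ± 0.15, adjusted p = 4.13e-12). For both genes all 8 arrays lay above both controls. Mcm3 had 1140, 1379 and 1952, against 408 and 431 (1.77 ± 0.11, adjusted p = 8.86e-14). Mcm7 had 872, 1228 and 2200, against 420.4 and 391 (1.73 ± 0.16, adjusted p = 1.50e-10). Mcm2 had 628, 1009 and 1720, against 406 and 459 (1.33 ± 0.27, adjusted p = 1.22e-04). Mcm6, the remaining ring subunit, lay near or under the floor, with 6.66, 43.6 and 76.6 against 113 and 19.1 in controls, and was not called (−0.36 ± 0.21, adjusted p = 0.191). Cdc6, the loader of the ring, had 339, 495 and 611, against 128 and 116 (1.97 ± 0.13, adjusted p = 4.50e-13). Cdc45, which activates the loaded ring, had 424, 682 and 823 and did not pass (0.35 ± 0.26, adjusted p = 0.317).

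The probe sets of the polymerase genes did not all move together. Pola1, the catalytic subunit of the polymerase that starts new strands, had 281, 424 and 599 at 3 to 4.5 d, against 49.1 and 85.9 in controls (log2 change 2.51 ± 0.22, adjusted p = 1.33e-10). Prim2 and Prim1, the primase subunits that lay down the RNA primer, were at the floor in both controls and higher at 3 to 4.5 d, by at least 2.46-fold and at least 1.97-fold. Pola2, the accessory subunit of the same polymerase, had 122, 415 and 671, against 2213 and 1236 in controls, and fell by 2.14 on the log2 scale (SE 0.48, adjusted p = 5.24e-04), with all 8 arrays below both controls. This direction belonged to 1 probe set: the other for Pola2 gave 0.27 (adjusted p = 0.178). Pold1, the catalytic subunit of another replicative polymerase, had 966, 1106 and 1181 and did not pass (0.39 ± 0.17, adjusted p = 0.0633). Rpa2, a subunit of the protein that coats single-stranded DNA, had 229.8, 299.8 and 347, against 633 and 618 in controls, and fell by 1.12 (SE 0.32, adjusted p = 0.00459), again with all 8 arrays below both controls.

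Pcna, the sliding clamp that holds polymerases on DNA, had 1543, 2447 and 4894, against 1031 and 818 in controls (log2 change 1.59 ± 0.31, adjusted p = 7.49e-05). Rfc4, a subunit of the clamp loader, gave 0.73 ± 0.40 and did not pass (adjusted p = 0.159). Both subunits of ribonucleotide reductase, which makes the deoxyribonucleotides, rose. Rrm2, the regulated small subunit, had 926, 1574 and 2912, against 235 and 199 in controls (2.91 ± 0.24, adjusted p = 2.00e-11), and Rrm1, the large one, had 979, 1224 and 2092, against 463 and 171 (2.21 ± 0.51, adjusted p = 6.19e-04). The control arrays of Rrm1 lay far apart, and without control array 2 the change was 1.49 with an adjusted p of 0.0891. Tk1, thymidine kinase, rose by 1.67 ± 0.36 (adjusted p = 2.98e-04) in its brightest probe set, while a dimmer one gave −1.96 (adjusted p = 0.0206). Dut, which removes dUTP, was not called (0.43 ± 0.65, adjusted p = 0.671).

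The remaining replication genes handle the finished strand and its chromatin. Fen1 and Lig1, the nuclease and ligase that join lagging-strand fragments, rose by 1.49 ± 0.15 (adjusted p = 2.25e-09) and 1.39 ± 0.31 (adjusted p = 4.58e-04). Chaf1a and Chaf1b, subunits of a chaperone that places histones behind the fork, rose by 1.59 ± 0.57 and 1.55 ± 0.56 (adjusted p = 0.0256 each), both with wide errors. Uhrf1, which brings the maintenance methyltransferase to newly copied DNA, had 984, 1185 and 1883 at 3 to 4.5 d, against 119 and 93.0 in controls (3.60 ± 0.31, adjusted p = 4.95e-11), with all 8 arrays above both controls. Top2a, the topoisomerase that untangles copied DNA and is also needed to part chromosomes, had 512, 609.95 and 1218, against 25.2 and 15.7 in controls. Both controls lay under the floor, so its rise was at least 10.9-fold (3.45 ± 0.24, adjusted p = 1.08e-12).

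Among mitosis genes, Cdk1, the kinase that drives entry into mitosis, had 1089, 1486 and 2176 at 3 to 4.5 d as lowest, median and highest, against 69.4 and 69.6 in controls (log2 change 4.46 ± 0.45, adjusted p = 1.53e-09), which is 22.1-fold. Its partner Ccnb2, a B-type cyclin, had 3206, 4156 and 5033, against 813 and 392 (2.87 ± 0.19, adjusted p = 4.54e-13). Both small subunits that bind the kinase stood far above controls. Cks1b had 1200, 1532 and 1970, against 91.1 and 45.8 (4.29 ± 0.44, adjusted p = 2.46e-09). Cks2 had 861, 1011 and 1610, against 27.8 and 11.7, both under the floor, so it was at least 17.4-fold higher (adjusted p = 2.69e-10). For these 4 genes all 8 arrays lay above both controls.

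The changes of the other mitotic kinases were smaller. Plk1, polo-like kinase, had 994, 1647 and 2057, against 526 and 419 in controls (1.76 ± 0.26, adjusted p = 1.18e-06). Aurkb, the kinase of the chromosomal passenger complex, had 200.5, 803 and 1143, against 114 and 76.8 (2.90 ± 0.50, adjusted p = 1.90e-05). Aurka, the spindle pole kinase, had 318, 489 and 873, against 319 and 196 (1.09 ± 0.24, adjusted p = 4.15e-04), with 7 of 8 arrays above both controls. Nek2, a centrosome kinase, had 376, 532 and 682, against 387 and 435, and did not pass (0.39 ± 0.27, adjusted p = 0.290). Bub1, a checkpoint kinase with both controls under the floor, was at least 3.89-fold higher (adjusted p = 5.32e-08). Mad2l1, which holds back the onset of chromosome separation, rose by 2.59 ± 0.30 (adjusted p = 1.61e-08). Cdc20, the activator that ends that hold, had 1489, 2349.8 and 3594, against 539.95 and 397 (2.33 ± 0.18, adjusted p = 5.84e-12).

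Among genes of the spindle and of cell cleavage, Prc1, which bundles microtubules of the midzone, had 808, 1253 and 1990.1, against 42.1 and 48.1 in controls, so it was at least 19.8-fold higher (adjusted p = 2.09e-15). Kif20a, a kinesin of the midzone, had 754, 1159 and 1708, against 29.1 and 24.1, and was at least 19.1-fold higher (adjusted p = 2.06e-13). Both controls of both genes lay under the floor. Stmn1, which destabilises microtubules, had 2376, 3283 and 5810.2, against 372 and 341 (3.35 ± 0.25, adjusted p = 4.20e-12). Birc5, survivin, of the passenger complex, had 586, 989 and 1528, against 11.5 and 146 (3.34 ± 0.28, adjusted p = 4.52e-11). The kinesins Kif2c, Kif22 and Kif4 rose by 3.01, 2.61 and 2.26, and Racgap1, a regulator of cell cleavage, by 2.93. Kif11, the motor that pushes the spindle poles apart, and Ect2, an activator of cleavage, had both controls under the floor and were at least 8.91-fold and at least 8.05-fold higher. Cenpa, the centromere histone, rose by 1.17 ± 0.30 (adjusted p = 0.00203), and Cenpe, a kinetochore motor, was near the floor, with 5.91, 53.4 and 169, and did not pass (0.26 ± 0.13, adjusted p = 0.103).

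Pola1, Cks1b and Birc5 had 1 control under the floor, so the sizes of their changes are lower bounds too. With only 2 controls, single arrays decided some of these calls. Without control array 1 the adjusted p was 0.295 for Cenpa (0.56), 0.0577 for Chaf1b (1.89), 0.0504 for Prim1 (0.98) and 0.0510 for Rpa2 (−1.11). Without control array 2 it was 0.415 for Chaf1a (0.93), 0.251 for Chaf1b (1.22), 0.0505 for Prim1 and 0.0752 for Aurka (0.74). Rfc4 passed without control array 1 (1.52, adjusted p = 0.0190) and Mcm6 without control array 2 (−0.76, adjusted p = 0.0271). Probe sets disagreed for Mcm5 (a dim set at −0.38, adjusted p = 0.520), Rrm1 (a dim set at −0.33), Lig1 (a dim set at −0.80, adjusted p = 0.241) and, as given above, Tk1 and Pola2. A further probe set of Stmn1 (0, adjusted p = 1) and 2 of Bub1 (0.22, adjusted p = 0.473, and 0.02, adjusted p = 0.959), all dim, did not pass either. The further probe sets of Mcm3, Plk1 and Kif20a all rose.

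The order of the classes was followed at single times. At 12 h, 0 of 26 replication genes were called higher in limma (1 higher and 1 lower at an unadjusted p under 0.05) and 2 of 23 mitosis genes, Kif2c (0.81) and Kif22 (0.72), against 10.5% of all probe sets. On the earlier version Kif22 was lower at 12 h (−1.29 ± 0.14, adjusted p = 0.000873). The 12 h arrays differed from each other in several genes of both classes. Cdk1 had 107 and 332, Cks2 had 17.0 and 301, Top2a had 39.8 and 189.7, and Kif11 had 22.9 and 154, with the higher value on array 2 each time. The same array had a summed intensity of 3 B cell markers of 8222, against 1002 on array 1 and 857 and 1001 on the controls. The part of those cells was not tested.

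At 1 d, 10 of 26 replication genes and 3 of 23 mitosis genes were higher than in controls, against 16.7% of all probe sets. The median log2 change was 0.56 for replication, 0.10 for mitosis and 0.00 for all probe sets. The 10 were Uhrf1, Chaf1a, Mcm5, Mcm4, Mcm3, Pola1, Rrm2, Cdc6, Mcm7 and Fen1. The 3 were Cks1b, Cks2 and Kif2c. Rpa2 (−1.64, adjusted p = 0.00159) and Nek2 (−1.29, adjusted p = 0.00342) were lower, 1 gene of each class against 16.8% of all probe sets.

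Uhrf1 had 656 and 834 at 1 d, against 119 and 93.0 in controls (log2 difference 2.81 ± 0.39, adjusted p = 8.04e-07). Mcm5 had 843 and 1040.4, against 482 and 341 (1.21 ± 0.23, adjusted p = 1.17e-04). Cks1b had 377 and 747, against 91.1 and 45.8 (2.79 ± 0.56, adjusted p = 1.90e-04). In each of these genes both arrays lay above both controls. Cks2 had 313 and 305, against 27.8 and 11.7 (2.26 ± 0.48, adjusted p = 3.91e-04), a lower bound because both controls lay under the floor. Cdk1 had 95.4 and 68.1 at 1 d, against 69.4 and 69.6, and Top2a had 35.6 and 23.5, under the floor as in controls, and neither was called (0.21 and 0). Both 1 d arrays are among those with a dim 3′ b-actin probe set. Over 12 h to 2 d the summed intensity of 8 neutrophil markers was 26490 to 81030, against 2526 to 2988 in controls, that of the macrophage markers 18870 to 87770, and that of the myoblast and new myotube markers 5033 to 11230. Their part was not tested.

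Between 1 d and 2 d most of the mitosis genes passed in a single step: 20 of 23 were higher at 2 d than at 1 d, and 12 of 26 replication genes, against 3.46% of all probe sets. This comparison shares no controls with the others. Cdk1 had 1386 and 1565 at 2 d, against 95.4 and 68.1 at 1 d (log2 difference 4.19 ± 0.57, adjusted p = 1.10e-05). Kif20a had 1152 and 1582, against 73.8 and 35.7 (4.29 ± 0.35, adjusted p = 1.74e-09). Birc5 had 642 and 768, against 8.85 and 28.5 at 1 d. In these 3 genes both arrays of 2 d stood far above both arrays of 1 d. Among replication genes, Rrm1 had 919 and 1015 at 2 d, against 87.0 and 184 at 1 d (2.93 ± 0.64, adjusted p = 0.00441), and Top2a had 399.9 and 579, against 35.6 and 23.5 (2.89 ± 0.31 as a lower bound, adjusted p = 1.46e-07). At 2 d, 18 replication genes and 20 mitosis genes were higher than in controls, against 18.6% of all probe sets. Rpa2 (−1.74) was lower, and so was Pola2 (−2.78) in the brighter of its 2 probe sets, against 16.3%.

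Over the whole early window, 12 h to 2 d, 11 replication genes and 14 mitosis genes were higher than in controls, against 17.7% of all probe sets. Leaving out the 7 arrays with a dim 3′ b-actin probe set removes 1 d and 2 d altogether and leaves 12 h array 1 alone in this window. Whether the early rise depends on those arrays could therefore not be examined. Without those arrays, Chaf1a at 3 to 4.5 d gave 1.48 (adjusted p = 0.0579).

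**Figure D2:**
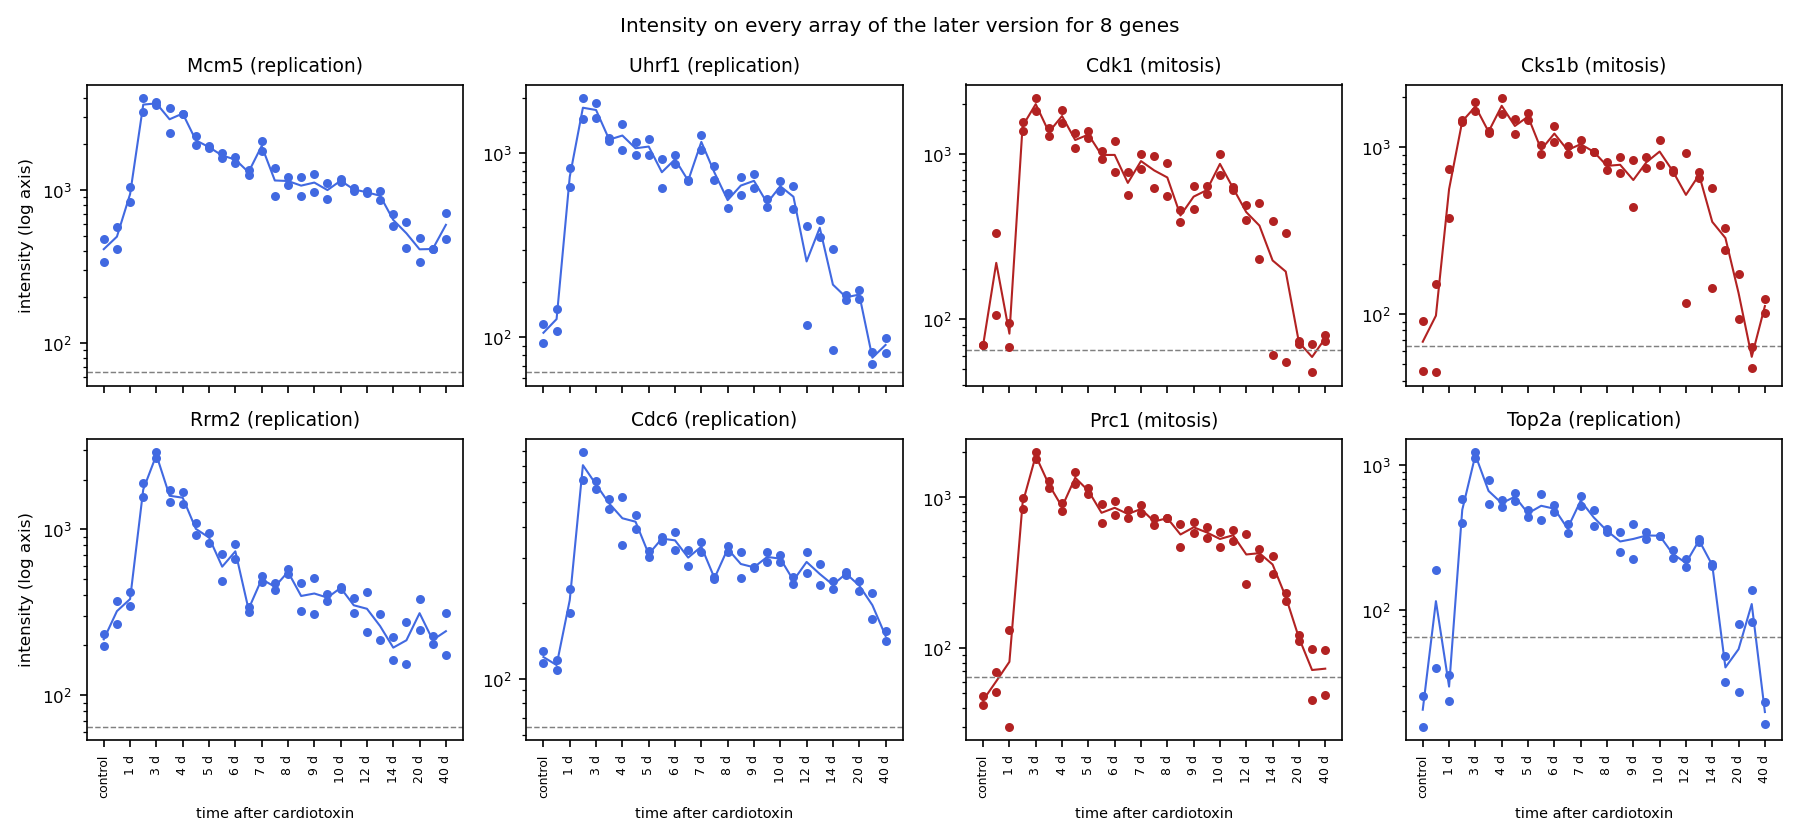
Intensity (log axis) of 8 genes on every array of the later version, by time after cardiotoxin with untreated controls at the left (steps not to scale). Points are arrays, 2 per group, lines join the group means, and the dashed line is the floor of 64.7. At 1 d, Uhrf1 and Cks1b have risen clearly, while Cdk1, Prc1 and Top2a have at most 132 at 1 d and at least 399.9 at 2 d.

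To compare genes of different size of change, each group mean was given as a share of the gene's own rise, on the log2 scale, from the control mean to its highest group mean. This was done as a description for the 19 replication and 21 mitosis genes higher at 3 to 4.5 d. Of these, Prim1, Prim2 and Top2a in replication and Bub1, Kif11, Kif20a, Prc1, Cks2 and Ect2 in mitosis had both controls under the floor. Their shares are therefore measured from the floor. At 12 h the median share was 0% for replication genes (quartiles −8.7 to 9.8) and 9.4% for mitosis genes (2.5 to 23). At 1 d the median gene had made 29.5% of its rise among replication genes (quartiles 4.7 to 38.2) and 3.5% among mitosis genes (0 to 19). At 2 d the medians were 88% and 78.3%. Past the peak the order of the classes at 1 d and 2 d was turned round, with 76.7% at 4 d, 57.7% at 5 d, 38.3% at 10 d and 16.5% at 14 d for replication. The mitosis genes stood at 87.9%, 73.5%, 55.3% and 31.9% at the same times. The share past the peak depends on the size of the rise. After an equal fold decline, a gene with a larger rise keeps a larger share, and the mitosis genes rose more. The part of this in the order of the classes past the peak was not tested.

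The highest group mean lay at 3 d for 15 of 19 replication genes and 19 of 21 mitosis genes. The exceptions among replication genes were Uhrf1, Chaf1b and Cdc6 at 2 d and Lig1 at 4 d, and among mitosis genes Cks1b at 4 d and Cenpa at 6 d. Choosing genes higher at 3 to 4.5 d favours a peak near 3 d. Among the replication genes left out, the highest mean lay at 2 d for Pold1, 4 d for Rfc4 and 5 d for Cdc45. It lay at 7 d for Dut, at 8.5 d for Mcm6 and in the controls for Pola2 and Rpa2. Of the mitosis genes left out, Nek2 was highest at 3 d and Cenpe at 4 d. The middle of the rise was passed by 1 d in Uhrf1, Chaf1a and Cks1b, by 3 d in Prim2 and by 2 d in the other 16 replication and 20 mitosis genes. The middle of the decline was reached at a median of 6 d for replication genes (range 4.5 to 12 d) and 8 d for mitosis genes (4.5 to 16 d). Prc1, at 16 d, Cks1b, at 14 d, and Cdk1, at 13 d, were the last. These times of decline depend on the size of the rise as the shares do.

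**Figure D3:**
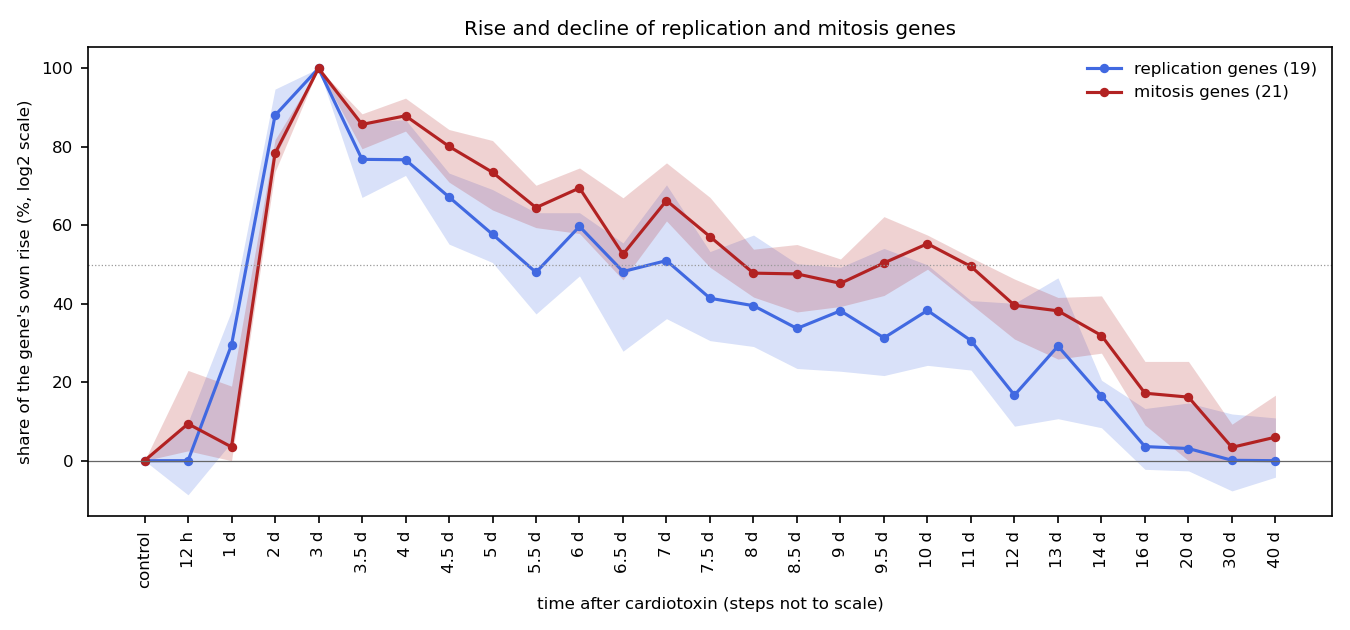
Median share of the gene's own rise (vertical axis, percent on the log2 scale) by time after cardiotoxin for 19 replication genes and 21 mitosis genes, with quartiles as bands and controls at the left. Replication stands above mitosis at 1 d (29.5% against 3.5%) and 2 d (88% against 78.3%), and mitosis above replication at 4 d (87.9% against 76.7%) and 10 d (55.3% against 38.3%). At 12 h mitosis also stands above replication (9.4% against 0%). Shares past the peak also depend on the size of the rise, which was larger for mitosis genes.

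The shares were also set beside the promoter elements within each class. The 7 risen replication genes with an E2F word had a median of 34.2% of their rise at 1 d and 93.9% at 2 d, and the 10 without one 15.6% and 84.6%. At 5 d they stood at 57.7% and 59.4%, and at 10 d at 48.2% with a word and 26.6% without. Among mitosis genes, the 13 with TTTGAA and CCAAT had 3.7% at 1 d and 78.3% at 2 d, and the 5 without both had 19.0% and 76.1%. At 5 d these medians were 77.5% and 68.8%, and at 10 d 55.9% and 49.6%. Top2a, listed with replication, holds both late elements and no E2F word, as shown by the search, and had 35.6 and 23.5 at 1 d, under the floor. Mcm2 holds the same elements and no E2F word, and had made 38.5% of its rise at 1 d. Rrm2 holds no E2F word and was called higher at 1 d. These are descriptions of a few genes and were not tested.

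Around the peak, 3 and 3.5 d were compared with 4.5 and 5 d. In that comparison 7 replication genes (Rrm2, Mcm7, Mcm5, Fen1, Cdc6, Mcm3 and Mcm4) and 2 mitosis genes (Aurka and Kif2c) were higher at 3 and 3.5 d, against 1.43% of all probe sets. The median log2 difference was 0.57 over replication genes and 0.47 over mitosis genes. Among the 9 called, the largest difference was that of Rrm2 (1.16 ± 0.21, adjusted p = 0.00110). The 2 mitosis calls rested on single arrays: none passed without either array of 3 d, array 2 of 3.5 d or array 1 of 4.5 d.

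The difference between 4 d and 2 d, a comparison chosen after seeing the data, could be made on both versions. On the later version 17 of 26 replication genes were below their 2 d mean at 4 d, and 20 of 23 mitosis genes were above it, where 42.6% of all probe sets were below and 55.2% above. Single genes passed rarely. Cdc6 was lower (−0.72 ± 0.17, adjusted p = 0.00886), where 1.54% of all probe sets were called lower. Cenpe was higher (at least 1.03, adjusted p = 7.49e-05), where 2.51% were called higher. Cenpe lay above the floor on 11 of 54 arrays. Its log2 change against controls was 0.016 at 2 d and 0 at 3, 3.5 and 4.5 d. On the earlier version 9 of 11 replication genes were below and 11 of 12 mitosis genes above, where 43.8% of all probe sets were below and 44% above. There, 0 members of either class passed in limma, against 2.13% of all probe sets called higher and 0.844% lower. At an unadjusted p under 0.05, 4 replication genes were lower and 1 higher, and 5 mitosis genes were higher. Of the genes tested on both versions, 9 of 11 replication genes were below on both, 1 was above on both and 1 differed in sign, and 10 of 12 mitosis genes were above on both, with 2 differing in sign. Of those 9, Mcm3 was above the floor of the earlier version only at 2 d, so the filter fixed its sign there. Rrm2 gave only −0.0024 on that version.

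**Figure D4:**
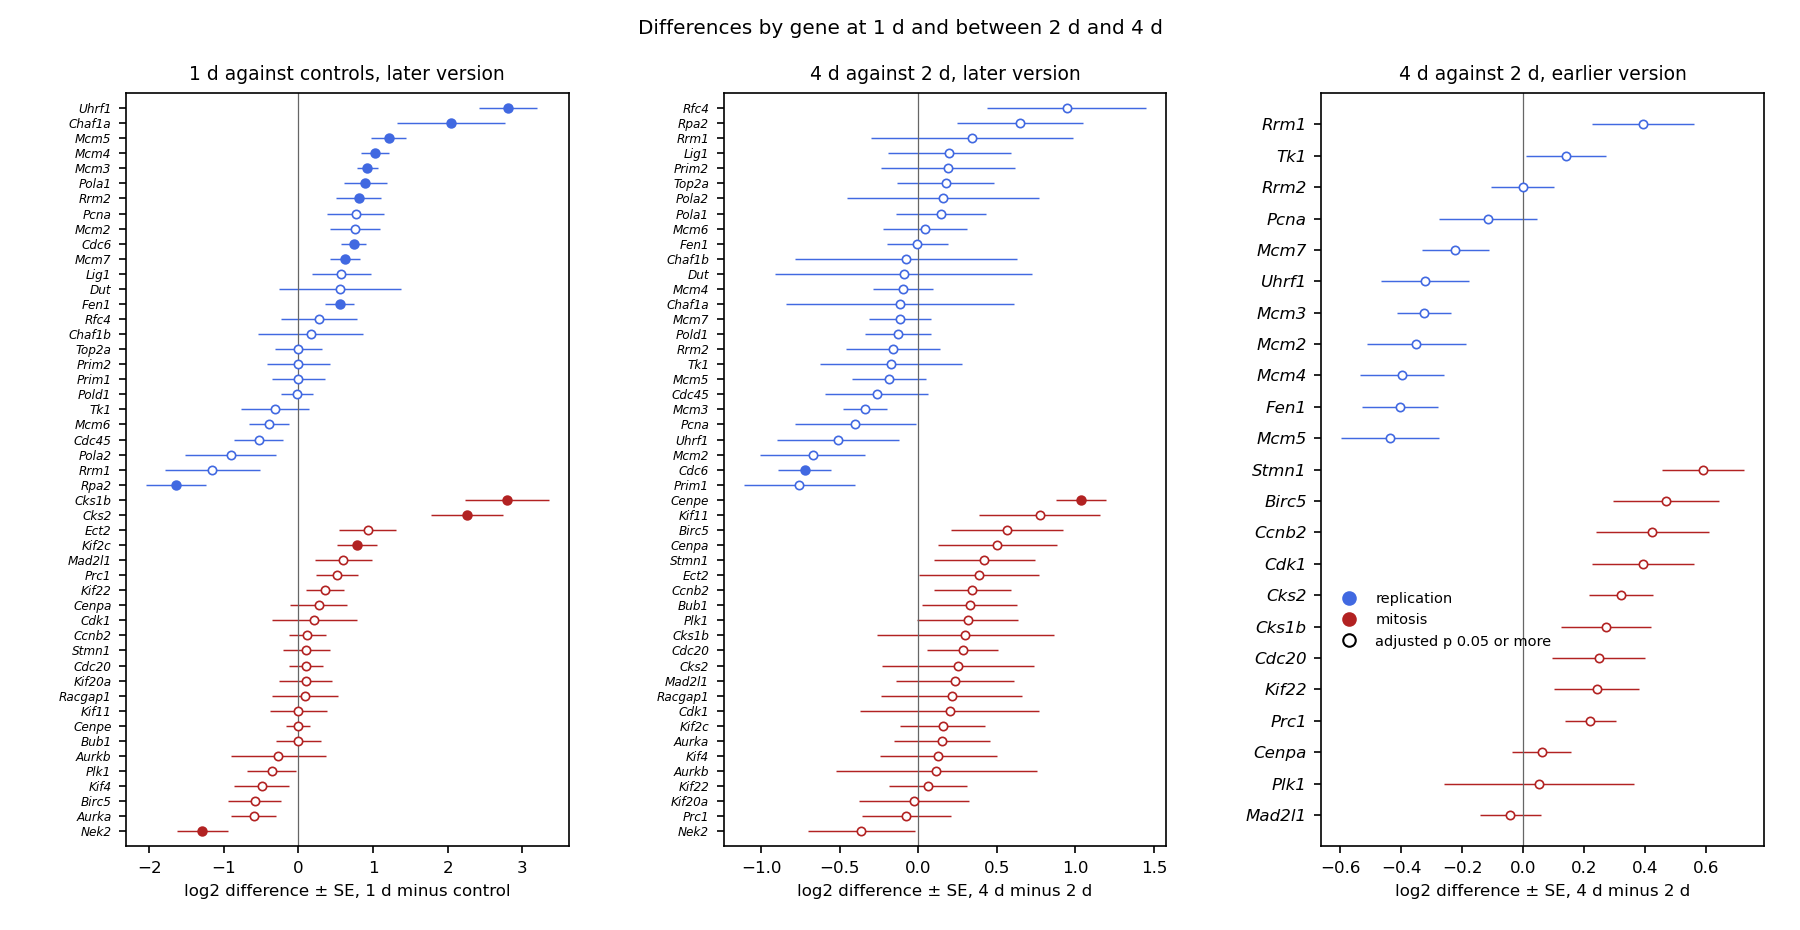
Log2 difference ± SE by gene, replication in blue above and mitosis in red below in each panel, for 1 d minus controls and 4 d minus 2 d on the later version and 4 d minus 2 d on the earlier version. Filled points passed an adjusted p of 0.05. At 1 d Uhrf1, Cks1b and Cks2 lie farthest right, and between 2 d and 4 d most replication genes lie left of 0 and most mitosis genes right of it on both versions.

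The earlier version has a higher floor, 646.8, and tested 11 of the 26 replication genes and 12 of the 21 mitosis genes with a probe set on it. At 12 h, Pcna had 1767 and 1496, against 591 and 444 in controls, both under the floor (log2 change of at least 1.33, adjusted p = 0.00135), where 9.05% of all probe sets were called higher. It was the 1 member called higher there. On the later version Pcna had 1271 and 1137 at 12 h, against 1031 and 818, and was not called. At 1 d the earlier version called 2 replication genes higher, Pcna (1.98) and Mcm5 (0.57, adjusted p = 0.0225), and, in limma, 0 of 12 mitosis genes, against 19.3% of all probe sets. No mitosis gene was higher there at an unadjusted p under 0.05 either. Except for Ccnb2, Plk1 and Kif22, however, the tested mitosis genes lay under this floor on all control, 12 h and 1 d arrays. Their changes at 12 h and 1 d were thus fixed at 0, and a rise could not be called. The same held for the tested replication genes other than Pcna and Mcm5. Kif22 was the 1 member called lower on this version, at 12 h (11.6% of all probe sets), 1 d (−1.20, adjusted p = 0.000726, 23.9%) and 10 d (−0.45, adjusted p = 0.0457, 13.2%). At 4 d it gave 0.02 on this version, against 2.64 on the later one. Mcm5 had 859 and 1066 at 1 d on this version, against 188 and −73.6 in controls.

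At 2 d on the earlier version 10 replication and 7 mitosis genes were higher, against 23.6% of all probe sets, at 4 d 7 and 7, against 22.9%, and at 10 d 1 (Pcna) and 2 (Ccnb2 and Stmn1), against 13.3%. Several of these genes, among them Mcm4, Mcm7, Rrm2, Tk1, Cdk1 and Cks2, lay above this floor only at 2 d and 4 d. They passed the filter through those groups, so the counts at 2 d and 4 d describe the genes and are no independent test. Cdk1 had 1166 and 1634 at 4 d and 947 and 1169 at 2 d, while its 1 d and control values were negative. Stmn1 had 2533 and 3298 at 4 d and 1936 and 1907 at 2 d. Uhrf1 ran the other way, with 1054 and 1077 at 4 d and 1145 and 1552 at 2 d. Its 1 d values, 454 and 548, lay under this floor, so the 1 d rise seen on the later version could not be measured here.

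The decline was tested by setting 5 to 7.5 d (n = 12) against 3 to 4.5 d (n = 8). Of the replication genes 17 were lower, and of the mitosis genes 19, against 12.0% of all probe sets, with median log2 differences of −0.59 and −0.81. Against controls, 14 replication and 20 mitosis genes were still higher at 5 to 7.5 d (19.0% of all probe sets), 11 and 18 at 8 to 10 d (16.9%), and 8 and 17 at 11 to 16 d (13.9%). The median log2 change at 11 to 16 d was 0.26 over replication genes and 1.09 over mitosis genes, beside 0 over all probe sets. The mitosis count at 11 to 16 d was 11 without control array 1. Without the 9 arrays with a low Gapdh ratio, 7 replication and 16 mitosis genes were higher at 11 to 16 d, against 12.4% of all probe sets.

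At 11 to 16 d (n = 10) Prc1 had 205, 402 and 612, against 42.1 and 48.1 in controls (log2 change of at least 2.53, SE 0.22, adjusted p = 3.14e-10). Cks1b had 116, 614 and 922, against 91.1 and 45.8 (2.45 ± 0.44, adjusted p = 7.09e-05). Both genes lay above both controls on all 10 arrays. Cdk1 spread more widely, with 54.7, 395 and 635 against 69.4 and 69.6 (2.08 ± 0.44, adjusted p = 6.17e-04), and 8 of 10 arrays were above both controls. At 16 d its arrays had 54.7 and 334. Among replication genes, Uhrf1 had 85.8, 327 and 664 (1.33 ± 0.30, adjusted p = 0.00119), and Cdc6 had 228, 255 and 318, against 128 and 116 (1.08 ± 0.13, adjusted p = 1.70e-07). The 8 replication genes still higher were Mcm3, Mcm4, Mcm5, Mcm7, Pola1, Uhrf1, Cdc6 and Top2a. At 16 d alone, 2 replication genes (Cdc6 and Pola1) and 3 mitosis genes (Prc1, Cks1b and Kif2c) were higher, against 4.91% of all probe sets.

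At 20 to 40 d (n = 6) few members were called. A single replication gene, Cdc6, and a single mitosis gene, Kif2c, were higher, against 5.01% of all probe sets, and 1 mitosis gene, Aurka, was lower, against 2.12%. Cdc6 had 141, 196 and 244, against 128 and 116 in controls (0.63 ± 0.14, adjusted p = 0.00348), with 6 of 6 arrays above both. Kif2c, a kinesin that takes microtubules apart, had 144, 179 and 319, against 135 and 76.8 (0.89 ± 0.22, adjusted p = 0.0101), also with 6 of 6 above. Aurka had 83.1, 148 and 173, against 319 and 196 (−0.84 ± 0.25, adjusted p = 0.0355), with 6 of 6 below. Without control array 2 no replication gene was called in this window. Of the 6 arrays 4 had a low Gapdh ratio, and on the other 2 Kif2c was higher (1.08, adjusted p = 0.0128), while Cdc6 (0.54, adjusted p = 0.0971) and Aurka (−0.64, adjusted p = 0.273) did not pass, against 2.68% of all probe sets called higher and 1.19% lower.

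Across the 54 arrays the risen genes moved together. The median pairwise correlation of log2 values was 0.71 within replication, 0.83 within mitosis and 0.75 between the classes. These points share the time course, and when the difference between the 2 arrays of each group was used instead (27 differences) the medians were 0.03, 0.09 and 0.05.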

How the data were processed

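The authors deposited 1 table of intensity values per array version. The unit is not stated in the files and was read from their range as linear intensity. The software that made them is not given in the sources used here. From these values, intensities were raised to a floor (later version 64.7, the median over arrays of the 20th percentile; earlier version 646.8, 2 times the root mean square of negative values) and put on the log2 scale. Probe sets above the floor on at least 2 arrays were tested, 11997 of 12488 and 4742 of 12654, after 66 control probe sets had been left out. limma 3.58.1 in R 4.3.3 was fitted with 1 mean per group on each version alone, with Benjamini-Hochberg adjustment over all probe sets within a comparison. A gene has its brightest probe set annotated to it alone.

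The genes, lists, windows and motifs were chosen with earlier results of these data known. The named-gene rule takes, per class, the 6 largest and 3 smallest changes at 3 to 4.5 d, a fixed set of well-known members and every member that runs against its class. The alternatives tried were other floors and filters, quantile normalization and median scaling, a variance trend, a required 2-fold change, probe sets of a gene averaged, each array left out, arrays with a dim b-actin or Gapdh 3′ probe set left out and a replicate block. The fit was tested on simulated data. The number of arrays, 2 per group, limits the precision.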

Additional observations from a re-analysis of the deposited data

Results flagged for a closer look

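Aurka, a spindle pole kinase, was above controls at 3 to 4.5 d (log2 change 1.09) and below them at 20 to 40 d (−0.84). The difference between these windows was not tested, and both share the same control arrays. Kif22, a chromosome-bound kinesin, ran in opposite directions on the array versions. It had 0.72 at 12 h on the later version and −1.29 on the earlier one, 0.36 and −1.20 at 1 d, 2.58 and −0.22 at 2 d, and 1.71 and −0.45 at 10 d. On the earlier version it was called lower at 12 h (adjusted p = 0.000873), 1 d (adjusted p = 0.000726) and 10 d (adjusted p = 0.0457). At 4 d the values were 2.64 and 0.02. Plk1 at 12 h gave 0.40 on the later version and −0.22 on the earlier one, where it was not called in limma (adjusted p = 0.691). On the earlier version its 12 h values (516 and 353) and control array 2 (471) lay under the floor. The −0.22 there rested on control array 1 (876) alone. The controls and 12 h samples of both versions carry the same codes, and the differences between versions were not tested. In each case all arrays of 1 group lay on 1 side of the control mean and all of the other on the opposite side. Groups of 2 arrays are too small for a search for single outlying arrays.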

How the results depend on the processing

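With 2 arrays per group and 2 controls, counts against controls depend on single arrays, and dim genes such as Mcm6 and Cenpe are limited by signal over background. Among the alternatives of this section, shares of all probe sets were computed only for late windows without the arrays with a low Gapdh ratio. For the others, whether the members moved more than all probe sets did was not tested. A required change of 2-fold left, for replication, 10 genes higher at 3 to 4.5 d, 1 at 12 h to 2 d, 1 at 1 d, and 0 at 11 to 16 d, at 20 to 40 d, in the decline and at 3 and 3.5 d over 4.5 and 5 d. For mitosis it left 2 at 12 h to 2 d, 1 at 1 d, 1 at 11 to 16 d, and 0 at 20 to 40 d, in the decline and at 3 and 3.5 d. That test asks for more than the main one by construction. Without the arrays with a dim b-actin probe set, 2 replication and 3 mitosis genes were higher at 20 to 40 d, while 12 h to 2 d kept only 12 h array 1 and could not be compared. Without the arrays with a low Gapdh ratio, an alternative chosen after seeing the data, 0 replication genes were higher at 20 to 40 d, where 2 of 6 arrays were left, and no other count moved by over 1.5 times. At 20 to 40 d, 2 mitosis genes were higher with the floor at 0.5 times, with no filter or with a trend. At 3 and 3.5 d, 6 mitosis genes were higher with a doubled floor and 4 with the mean of probe sets. On the earlier version a doubled floor left 5 members higher at 4 d (14 otherwise), 5 replication genes below their 2 d mean and 6 mitosis genes above it. Tk1 turned to −0.146 (adjusted p = 0.783) with the mean of its probe sets, and Lig1 gave 0.30 (adjusted p = 0.445). The cause was not tested.

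Leaving out each array in turn gave, for replication and mitosis, 20 to 23 and 21 to 23 genes changed over time, 10 to 12 and 11 to 15 higher at 12 h to 2 d, 7 to 11 and 2 to 4 at 1 d, 15 to 20 and 20 to 22 at 3 to 4.5 d, 6 to 8 and 11 to 17 at 11 to 16 d, and 0 to 2 and 1 to 3 at 20 to 40 d. The decline had 12 to 17 and 17 to 19, and 3 and 3.5 d had 5 to 8 and 0 to 3. At 4 d, 13 to 19 replication genes were below and 15 to 21 mitosis genes above 2 d on the later version, and 8 to 10 and 10 to 11 on the earlier one, where 12 to 16 members were higher than controls. The median time of the highest mean, over the genes higher at 3 to 4.5 d, stayed at 3 d for both classes.

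With the code number as a replicate block, 22 replication and 22 mitosis genes changed over time, 19 and 21 were higher at 3 to 4.5 d and 8 and 17 at 11 to 16 d, and no count moved by over 1.5 times. The numbers do not pair the samples: same-numbered deviations had a median correlation of 0.003 (−0.168 to 0.161) over 153 pairs of groups, 5 of them above 0.1, and 9 groups hold arrays of only 1 number.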

Other observations

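Of a further list of 45 replication genes, 37 could be tested, and 18 were higher and 1 lower at 3 to 4.5 d than in controls (median log2 change 0.56, beside 0.00 over all probe sets, of which 22.2% were higher and 18.5% lower). Asf1b, a histone chaperone, rose by 2.41, Cdt1, which loads the helicase with Cdc6, by 2.11, Topbp1 by 2.08 and Dnmt1, the maintenance methyltransferase, by 1.99. Pole4 fell by 1.15. At 1 d, 9 of them were higher and 4 lower, against 16.7% and 16.8% of all probe sets, with Cdt1 at 2.18 ± 0.25 (SE, adjusted p = 4.05e-08). Of 55 further mitosis genes, 33 could be tested, and 21 were higher and 2 lower at 3 to 4.5 d (median 1.28), against the same 22.2% and 18.5% of all probe sets. Mki67, the proliferation antigen, rose by 4.07, Ckap2 by 3.36, Kif23, a cleavage kinesin, by 3.16 and Ccna2, a cyclin of S phase and mitosis, by 2.91. Asf1b, Mki67 and Kif23 had 1 control under the floor, so their sizes are lower bounds. Anln, which shapes the cleavage furrow, was under the floor in both controls and at least 18.8-fold higher. At 1 d, 5 were higher and 3 lower, shares near or under the 16.7% and 16.8% of all probe sets, with Ccna2 at 1.20 ± 0.28 (adjusted p = 8.56e-04).

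Of 25 transcription regulators of the cell cycle, 18 could be tested, and 8 were higher and 3 lower at 3 to 4.5 d, against 22.2% and 18.5% of all probe sets. E2f8, a repressor of the E2F family, rose by 3.26 ± 0.41, Foxm1, an activator of mitosis genes, by 1.51 ± 0.30, and E2f1 by 1.24 ± 0.38. Rbl2, a pocket protein that holds genes down in resting cells, fell by 1.27 ± 0.31. Of the subunits of the factor that binds CCAAT, Nfya rose by 1.66 ± 0.23, while Nfyb fell by 1.28 ± 0.24 and Nfyc by 0.40 ± 0.12. Cdkn1a, an inhibitor of the cell cycle kinases, stood 3.30 ± 0.14 above controls at 3 to 4.5 d and 3.06 ± 0.18 at 1 d, and Myc stood 1.51 ± 0.32 above controls at 3 to 4.5 d.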
